A study of Mus musculus with 12 samples.

Results

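The 9 genes described here encode transcription factors that build and maintain heart muscle. They are the GATA factor genes Gata4 and Gata6, the T-box gene Tbx20, the basic helix-loop-helix gene Hand2, the MEF2 genes Mef2a, Mef2c and Mef2d, the serum response factor gene Srf, and Myocd, which encodes its coactivator myocardin. They were chosen by gene name. All 9 were found among the 56748 genes of the count table, and all 9 were among the 15742 genes with enough reads to be tested. The table assigns a transcription factor family to 1525 genes, among them 8 of the 9; it gives Myocd none. RNA was sequenced from the left ventricles of wild-type C57BL/6J mice in 3 groups of 4 mice, 14 days after surgery. The first group received an AAV9 vector that overexpresses Irx3, an Iroquois homeobox transcription factor, followed by myocardial infarction through ligation of the left anterior descending coronary artery. The second received an AAV9 control vector and the same infarction, and the third received the control vector and sham surgery. Every mouse therefore carried an AAV9 vector given through the tail vein, and no group combined the Irx3 vector with sham surgery, so the effect of the vector in a heart without infarction was not measured. The sources used here do not give the promoter that drives Irx3 in the vector. The study's title names cardiac dysfunction after infarction, inflammation and fibrosis as its subject.

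These factors work as a network. GATA proteins bind short sites around the letters GATA, T-box and helix-loop-helix proteins bind their own sites nearby, and MEF2 proteins and serum response factor, which share a related DNA-binding domain, bind A- and T-rich sites in the control regions of muscle genes. Gata4, Tbx20, Hand2 and Mef2c are each needed for the embryonic mouse heart to form, and in the adult ventricle GATA4 and the MEF2 proteins are known for their part in the growth response of cardiomyocytes to load. Myocardin binds serum response factor and directs it to muscle genes, and histone deacetylases of class IIa hold MEF2 proteins in a repressive state.

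RefSeq promoter windows on GRCm38.p6, each 300 bases long from 250 before to 50 after an annotated start, were at hand for 6 of the 9 genes. Those of Srf, Mef2a and Hand2 are shown because they hold a GATA, MEF2 or CArG motif, marked in capitals on either strand with any T-box letters. The window of Srf on the minus strand at chr17:46556113-46556412 holds 2 CArG boxes, the site of serum response factor.
Srf: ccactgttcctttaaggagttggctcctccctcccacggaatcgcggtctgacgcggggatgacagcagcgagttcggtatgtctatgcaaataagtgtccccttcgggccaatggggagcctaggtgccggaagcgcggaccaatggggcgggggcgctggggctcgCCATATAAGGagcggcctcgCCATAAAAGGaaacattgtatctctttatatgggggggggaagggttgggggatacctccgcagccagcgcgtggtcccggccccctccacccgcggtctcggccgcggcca
The window of Mef2a on the minus strand at chr7:67372809-67373108 holds a MEF2 motif, followed by the T-box letters GGTGTG.
Mef2a: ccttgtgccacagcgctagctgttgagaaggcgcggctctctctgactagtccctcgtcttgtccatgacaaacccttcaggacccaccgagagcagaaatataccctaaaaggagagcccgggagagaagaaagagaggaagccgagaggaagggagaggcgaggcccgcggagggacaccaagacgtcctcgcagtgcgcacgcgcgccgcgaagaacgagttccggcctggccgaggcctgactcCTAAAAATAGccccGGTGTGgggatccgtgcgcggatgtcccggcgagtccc
The window of Hand2 on the plus strand at chr8:57320733-57321032 holds the GATA motif AGATAA on the opposite strand.
Hand2: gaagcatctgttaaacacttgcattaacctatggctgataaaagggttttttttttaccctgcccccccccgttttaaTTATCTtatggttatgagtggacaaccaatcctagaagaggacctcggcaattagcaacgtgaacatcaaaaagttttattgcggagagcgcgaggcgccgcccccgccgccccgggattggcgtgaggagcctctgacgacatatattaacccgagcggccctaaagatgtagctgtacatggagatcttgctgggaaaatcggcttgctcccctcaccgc
A CArG box occurs in 1.63% of the 32851 promoter windows of the same length, the MEF2 motif in 3.19%, AGATAA in 11.2% and GGTGTG in 19.1%, all searched on both strands. The CArG box and the MEF2 motif are both A- and T-rich patterns, and no window of the 6 genes held both. No window of the 6 genes held the Iroquois palindrome ACANNTGT, found in 7.38% of all windows. The E-box CANNTG, found in 72.3%, was searched but not capitalised, and the windows of Mef2d and Tbx20 held none of the motifs searched. Mef2c has 3 windows, of which 1 holds GGTGTG and the other 2 hold E-boxes alone; they are not shown. These matches describe letters only and give no evidence of binding. The reads were assigned on another build, GRCm39, so these coordinates serve only to locate the sequences shown.

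Depth was similar across groups. Total counts per library were 13352604 to 19236721 in infarcted Irx3-vector hearts, 16081360 to 18738571 in infarcted control-vector hearts and 15966982 to 18441830 in sham hearts. Irx3 itself averaged 393 ± 111 CPM (normalised counts scaled to a common library size) in infarcted Irx3-vector hearts, 23.1 ± 6.89 CPM in infarcted control-vector hearts and 24.5 ± 2.65 CPM in sham hearts (SD, n = 4 each), in the direction the labels give. The share of counts from mitochondrial genes was 10.45% to 19.01% in infarcted Irx3-vector hearts, 0.926% to 5.64% in infarcted control-vector hearts and 4.50% to 8.22% in sham hearts, without overlap between the first group and the others. The labels name cardiomyocytes as the cell type as well as the left ventricle as the tissue. Summed over 12 cardiomyocyte markers, levels were 35975 to 63544 CPM in infarcted Irx3-vector hearts, 27819 to 71416 CPM in infarcted control-vector hearts and 106700 to 121750 CPM in sham hearts. Summed over 12 fibroblast markers, levels were 5120 to 26912 CPM in infarcted Irx3-vector hearts, 15729 to 42840 CPM in infarcted control-vector hearts and 2283 to 2801 CPM in sham hearts. For 12 macrophage and monocyte markers they were 942 to 1756 CPM in infarcted Irx3-vector hearts, 1386 to 3219 CPM in infarcted control-vector hearts and 439 to 557 CPM in sham hearts. None of these markers was at 0 in any group, so the libraries held RNA of several cell types, as whole ventricle does. In such bulk samples, fewer cells of a type and less RNA per cell cannot be told apart. The labels give 1 batch for all 12 libraries.

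Read density differed widely among the 9 genes. Per kilobase of exon, Srf and Mef2d stood highest in sham hearts, at 88.1 ± 14.6 and 76.9 ± 11.8 CPM per kb (SD, n = 4). Their ranges overlapped, and both lay above Gata4 at 33.3 ± 1.53, Hand2 at 30.7 ± 6.39 and Gata6 at 26.5 ± 4.35 CPM per kb, neighbours whose ranges overlapped in turn. Mef2a followed at 19.3 ± 0.453, Myocd at 12.2 ± 1.80, Tbx20 at 7.94 ± 0.436 and Mef2c at 6.46 ± 0.791 CPM per kb, and of these the ranges of Tbx20 and Mef2c overlapped. In infarcted control-vector hearts the order was Srf, Mef2d, Gata4, Gata6, Mef2a, Tbx20, Hand2, Myocd and Mef2c, with Hand2 now below Tbx20. The ranges of neighbours overlapped from Gata6 through Myocd in that group. In infarcted Irx3-vector hearts Gata4 stood first at 47.8 ± 11.4 CPM per kb, before Srf at 46.6 ± 10.7, Mef2d at 38.5 ± 6.97 and Mef2a at 35.3 ± 4.55 CPM per kb. These 4 overlapped as neighbours, and Myocd was last at 8.03 ± 1.74 CPM per kb. Lengths and names came from an annotation of the earlier build.

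**Figure D1:**
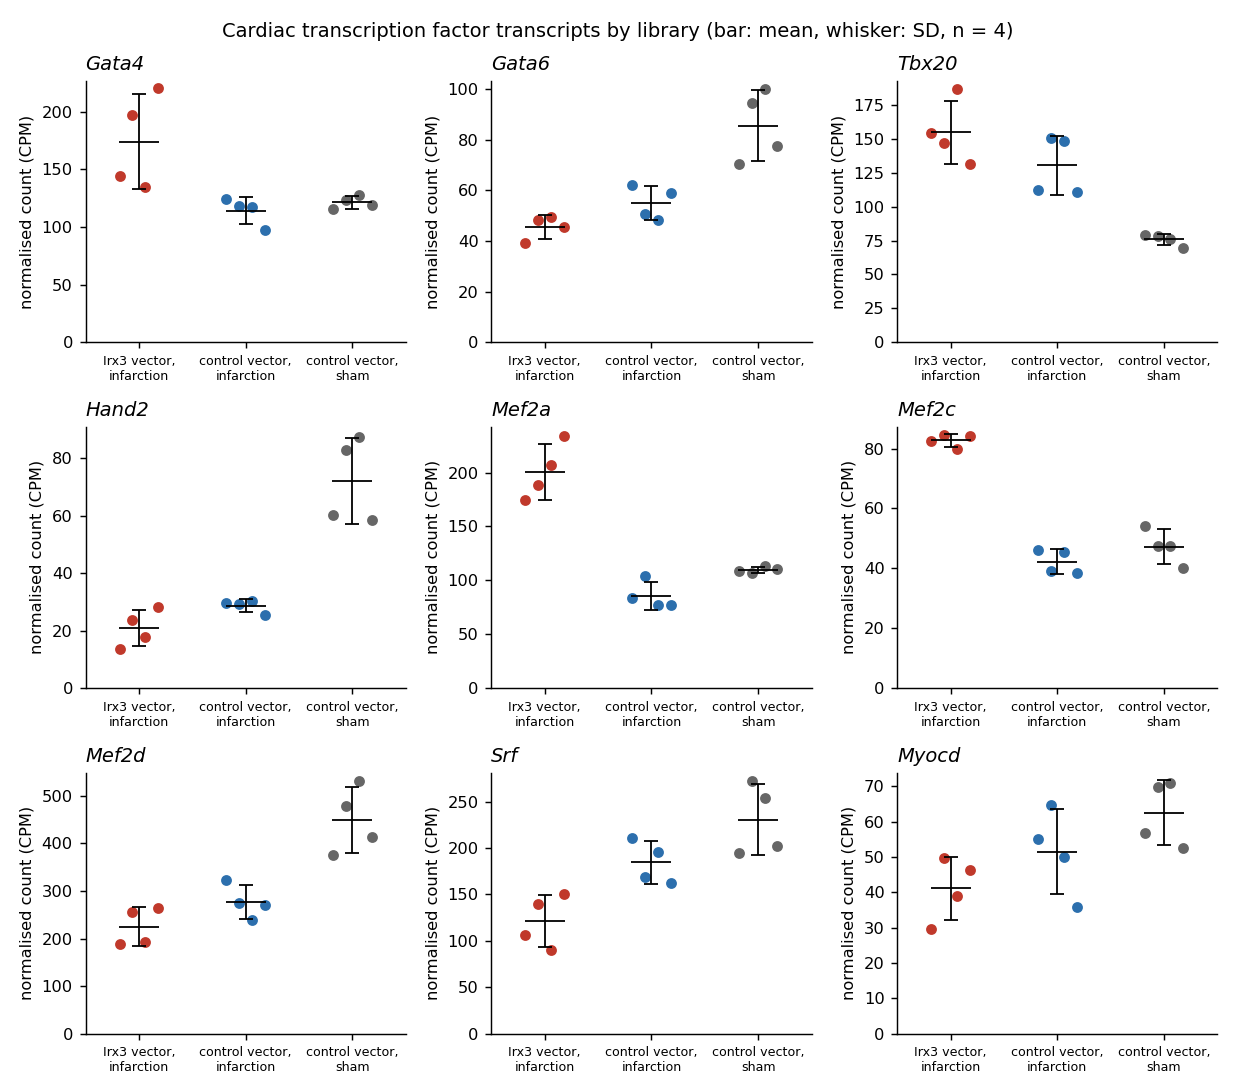
Normalised count (CPM, vertical axes from 0) of each of the 9 genes in each library, for the Irx3 vector with infarction, the control vector with infarction and the control vector with sham surgery (points: libraries; bar: mean; whisker: SD, n = 4). Hand2, Gata6 and Mef2d lie highest in the sham hearts, Tbx20 lies lowest there, and Mef2a, Mef2c and Gata4 lie highest with the Irx3 vector.

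Infarction with the control vector was first set against sham surgery. Of the 9 genes, 4 were lower in infarcted hearts (Hand2, Mef2d, Gata6 and Mef2a) and 1 was higher (Tbx20), at an adjusted p under 0.05 in edgeR's quasi-likelihood test with Benjamini-Hochberg adjustment over all genes. Hand2 fell the most, to 0.397 of its sham level, and Tbx20 stood at 1.72 times its sham level. Gata4, Mef2c, Srf and Myocd did not pass. In the same comparison 48.7% of all genes tested were called, 26.3% higher and 22.4% lower, so a count of 5 of 9 is near the background. The median log2 fold change was -0.32 over the 9 genes and 0.01 over all genes. Beside these changes, 9 of 12 cardiomyocyte markers were lower and 12 of 12 fibroblast and 12 of 12 macrophage and monocyte markers were higher in infarcted hearts, and their part in the results for the 9 genes was not tested.

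Among the GATA genes, Gata6, which encodes a zinc-finger activator that overlaps in function with GATA4, had 62.0, 50.6, 48.4 and 59.2 CPM in infarcted hearts, against 70.3, 94.4, 100.2 and 77.4 CPM in sham hearts. Every infarcted library lay below every sham library. The log2 fold change was -0.64 ± 0.14 (SE; edgeR adjusted p = 0.00214). Gata4, the GATA factor best known for driving natriuretic peptide and contractile genes, had 124, 118, 117 and 97.0 CPM in infarcted hearts, against 115, 124, 128 and 119 CPM in sham hearts. The 2 groups overlapped, and the log2 fold change of -0.09 ± 0.16 (SE) did not pass (edgeR adjusted p = 0.659).

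Hand2 and Tbx20 moved in opposite directions. Hand2, which encodes a helix-loop-helix factor required for the right ventricle in the mouse embryo, had 29.5, 29.3, 30.5 and 25.6 CPM in infarcted hearts, against 60.2, 83.0, 87.3 and 58.5 CPM in sham hearts. The infarcted libraries lay close together and far below every sham library, and the log2 fold change was -1.33 ± 0.20 (SE; edgeR adjusted p = 0.000236). Tbx20, a T-box gene needed in adult mouse cardiomyocytes for the expression of ion channel and contractile genes, had 112, 151.0, 148 and 111 CPM in infarcted hearts, against 79.0, 78.4, 76.4 and 69.9 CPM in sham hearts. All infarcted libraries lay above all sham libraries, and the log2 fold change was 0.78 ± 0.14 (SE; edgeR adjusted p = 0.000666). Hand2os1, a long noncoding RNA gene that lies head to head with Hand2, fell by 1.72 ± 0.27 on the log2 scale (SE; edgeR adjusted p = 0.000291). In the annotation of the earlier build the pair overlap on opposite strands over 246 bases, and the strand setting of the counting is not known here, so reads from that stretch cannot be assigned to either with certainty. Gata6os, the antisense neighbour of Gata6, also fell, by 1.62 ± 0.23 (SE; edgeR adjusted p = 0.000138).

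The 3 MEF2 genes differed in size of change. Mef2d, whose protein transmits stress signals in the adult mouse heart, had 324, 274, 238 and 271 CPM in infarcted hearts, against 376, 478, 531 and 412 CPM in sham hearts. The groups did not overlap, and the log2 fold change was -0.70 ± 0.17 (SE; edgeR adjusted p = 0.00413). Mef2a, the MEF2 gene of the postnatal mouse heart, had 83.1, 104, 76.6 and 77.0 CPM in infarcted hearts, against 109, 107, 113 and 111 CPM in sham hearts. Its infarcted libraries also lay below those of the sham hearts, but the change was small, -0.37 ± 0.13 (SE; edgeR adjusted p = 0.0310). Leaving out any 1 of the 4 sham libraries left the log2 fold change between -0.38 and -0.36 and the adjusted p between 0.0529 and 0.0692, so this call rests on the full set of sham libraries. Mef2c, the MEF2 gene of the embryonic mouse heart tube, had 46.1, 39.0, 45.3 and 38.3 CPM in infarcted hearts, against 54.1, 47.3, 47.4 and 39.98 CPM in sham hearts. Its difference of -0.16 ± 0.11 on the log2 scale (SE) did not pass (edgeR adjusted p = 0.249), and the groups overlapped.

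Srf and Myocd were not called. Srf had 211, 169, 196 and 162 CPM in infarcted hearts, against 194, 272, 254 and 202 CPM in sham hearts. The difference on the log2 scale was -0.32 ± 0.18 (SE; edgeR adjusted p = 0.150). Myocd had 55.1, 64.8, 50.1 and 35.9 CPM in infarcted hearts, against 56.8, 69.7, 71.0 and 52.5 CPM in sham hearts. Its log2 fold change was -0.28 ± 0.19 (SE; edgeR adjusted p = 0.248). In both genes the groups overlapped, and the means were lower after infarction by less than the test could separate from the spread.

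With infarction in both groups, the Irx3 vector was then set against the control vector. Mef2a, Mef2c and Gata4 were higher with the Irx3 vector, at 2.36, 1.96 and 1.53 times their levels with the control vector, and Srf was lower, at 0.660 times. The other 5 genes did not pass. In this comparison 49.3% of all genes tested were called, 25.2% higher and 24.1% lower, so 4 of 9 is again near the background, and the median log2 fold change was -0.27 over the 9 genes and 0.00 over all genes. After the correction for GC content described next, the median over the 9 genes was 0.18, so its sign turned, and that over all genes was 0.01. Beside these results, 5 of 12 fibroblast, 8 of 12 endothelial and 5 of 12 macrophage and monocyte markers were lower with the Irx3 vector as counted. In the same order 0, 3 and 1 were higher, and of 12 cardiomyocyte markers 1 was higher and 1 lower. After the correction 6 fibroblast, 6 endothelial and 1 of the macrophage and monocyte markers were lower, and 0, 1 and 0 were higher. Of the cardiomyocyte markers 1 was then higher and 0 lower. The part of these markers and of the mitochondrial share given above was not tested. The comparison has a feature that touches each of these results: fold changes followed the GC content of transcripts. Across 15186 genes the Spearman correlation of log2 fold change with GC content was -0.67, a value over genes, which are not independent replicates, against 0.04 in the comparison of infarction with sham surgery. Each result below is therefore given as counted and again after the GC content of transcripts was fitted as a smooth curve in each library and taken out. Whether the relation with GC content arose in the tissue or in the libraries was not tested, and the correction takes out either.

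**Figure D2:**
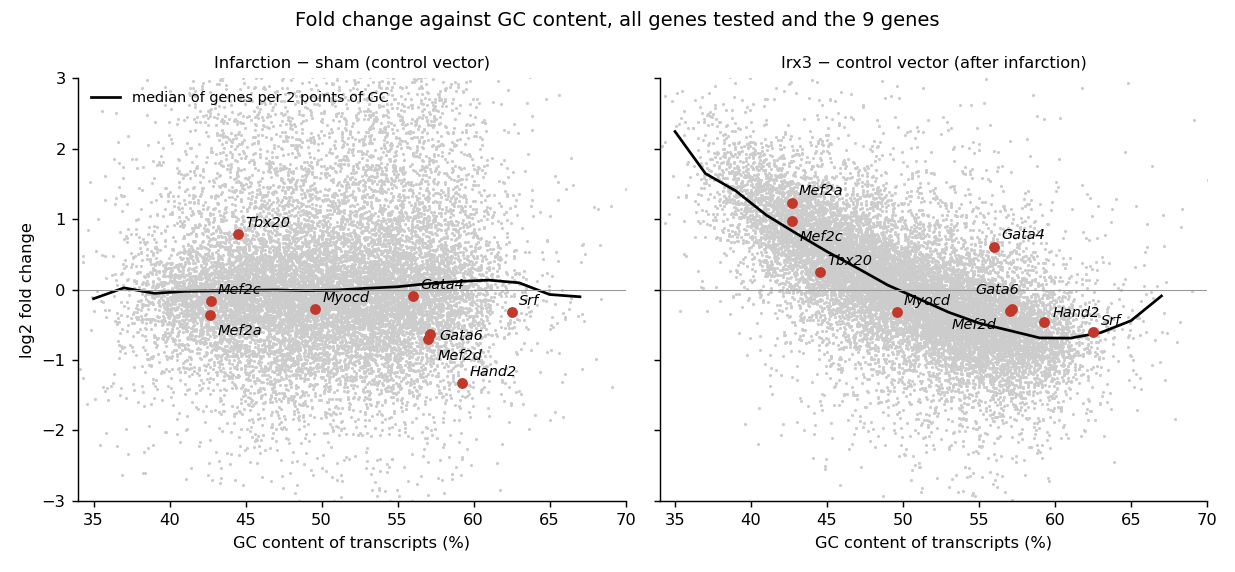
Log2 fold change (vertical axis) against the GC content of each gene's transcripts in percent (horizontal axis), for infarction minus sham surgery with the control vector (left) and the Irx3 vector minus the control vector after infarction (right); grey points are all genes tested with a known GC content, red points the 9 genes, and the line is the median of genes in steps of 2 points of GC content. On the left the line is nearly flat; on the right it falls with GC content over most of the range, Mef2c and Srf lie close to it, and Gata4 lies well above it.

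The 9 genes spanned much of the range of GC content, with Mef2a at 42.7%, Mef2c at 42.7%, Tbx20 at 44.5%, Myocd at 49.6%, Gata4 at 56.0%, Mef2d at 57.0%, Gata6 at 57.1%, Hand2 at 59.3% and Srf at 62.5%. Genes within 1 percentage point of Mef2c had a median log2 fold change of 0.84, against 0.97 for Mef2c itself, which was above 60.8% of those 1101 genes. For Srf, the median of 173 genes of like GC content was -0.63, against -0.60 for Srf itself. Gata4 stood apart from its like: the median of 1525 genes was -0.53, against 0.61 for Gata4, which was above 95.6% of them. Mef2a, at 1.24, was above 79.2% of its 1102 genes of like GC content, whose median was 0.84. Gata6, at -0.27, was above 73.5% of its 1302, whose median was -0.58.

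Gata4 had 144, 197, 134 and 221 CPM with the Irx3 vector, all above the highest control-vector library of 124 CPM. The log2 fold change was 0.61 ± 0.16 (SE; edgeR adjusted p = 0.00586), and it was 1.14 ± 0.15 after the GC correction (edgeR adjusted p = 0.000381), a fold of 2.21. On the GC-corrected log2 CPM scale the libraries stood at 7.58, 7.90, 7.50 and 8.15 with the Irx3 vector, against 6.70, 6.87, 6.74 and 6.27 with the control vector. Gata4 was thus higher on both scales, without overlap. Gata6 had 39.0, 48.3, 49.6 and 45.6 CPM with the Irx3 vector, overlapping the 48.4 to 62.0 CPM of the control vector. As counted its log2 fold change was -0.27 ± 0.14 (SE; edgeR adjusted p = 0.119), and after the GC correction it was 0.34 ± 0.10 (edgeR adjusted p = 0.0280), so the sign depends on the correction. The corrected call for Gata6 was lost when control-vector replicate 3 or 4, or Irx3-vector replicate 2 or 3, was left out, with log2 fold changes of 0.30, 0.32, 0.35 and 0.27 and adjusted p of 0.0787, 0.0610, 0.0598 and 0.0831.

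Mef2a had 174, 188, 207 and 234 CPM with the Irx3 vector, against at most 104 CPM with the control vector. Its log2 fold change was 1.24 ± 0.13 (SE; edgeR adjusted p = 2.9e-05) as counted and 0.39 ± 0.10 (edgeR adjusted p = 0.0164) after the GC correction. Mef2a was called on both scales, at 2.36 times the control-vector level as counted and 1.31 times corrected, and without control-vector replicate 3 it was 0.32 with an adjusted p of 0.0510. Mef2c had 82.5, 84.4, 79.9 and 84.4 CPM with the Irx3 vector, a narrow range above the 38.3 to 46.1 CPM of the control vector. Its log2 fold change was 0.97 ± 0.11 (SE; edgeR adjusted p = 4.9e-05) as counted and 0.12 ± 0.14 (edgeR adjusted p = 0.552) after the correction, which ended the call. Mef2d had 188, 256, 192 and 265 CPM with the Irx3 vector and overlapped the control vector. Its log2 fold change was -0.30 ± 0.17 (SE; edgeR adjusted p = 0.157) as counted and 0.30 ± 0.14 (edgeR adjusted p = 0.139) after the correction.

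Srf had 107, 140.0, 90.3 and 150.0 CPM with the Irx3 vector, all below the lowest control-vector library of 162 CPM. As counted it fell by 0.60 ± 0.18 on the log2 scale (SE; edgeR adjusted p = 0.0133), and after the GC correction it was 0.02 ± 0.16 (edgeR adjusted p = 0.948). Among the 9 genes Srf has the highest GC content, and its call was not kept. Myocd had 29.5, 49.7, 39.1 and 46.4 CPM with the Irx3 vector, and its log2 fold change was -0.32 ± 0.19 (SE; edgeR adjusted p = 0.184) as counted and -0.31 ± 0.18 (edgeR adjusted p = 0.219) corrected. Myocd, whose GC content is above that of 46.5% of genes, had nearly the same value on both scales. As counted it passed without control-vector replicate 4, at -0.45 with an edgeR adjusted p of 0.0414, and without replicate 4 of both infarcted groups, at -0.53 with an edgeR adjusted p of 0.0297.

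Tbx20 and Hand2 did not pass in this comparison. Tbx20 had 154, 147, 187 and 131 CPM with the Irx3 vector, overlapping the control vector, and its log2 fold change was 0.25 ± 0.14 (SE; edgeR adjusted p = 0.163) as counted and -0.34 ± 0.12 (edgeR adjusted p = 0.0514) corrected. The corrected value of Tbx20 passed without Irx3-vector replicate 3, at -0.43 with an edgeR adjusted p of 0.0200. Hand2 had 13.7, 23.8, 17.8 and 28.1 CPM with the Irx3 vector, 3 of them below the lowest control-vector library of 25.6 CPM. Its log2 fold change was -0.47 ± 0.20 (SE; edgeR adjusted p = 0.0731) as counted and 0.18 ± 0.20 (edgeR adjusted p = 0.548) corrected. Without Irx3-vector replicate 4 the uncorrected value of Hand2 was -0.64 and passed, with an adjusted p of 0.0178. After the GC correction 3 of the 9 genes were called, Gata4, Gata6 and Mef2a, all of them higher, where 25.5% of all genes were called and 13.2% were higher. In the comparison with sham surgery, by contrast, the same 5 genes were called with and without the correction (53.1% of all genes corrected, 30.6% higher and 22.5% lower), and each log2 fold change of the 9 moved by less than its SE.

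**Figure D3:**
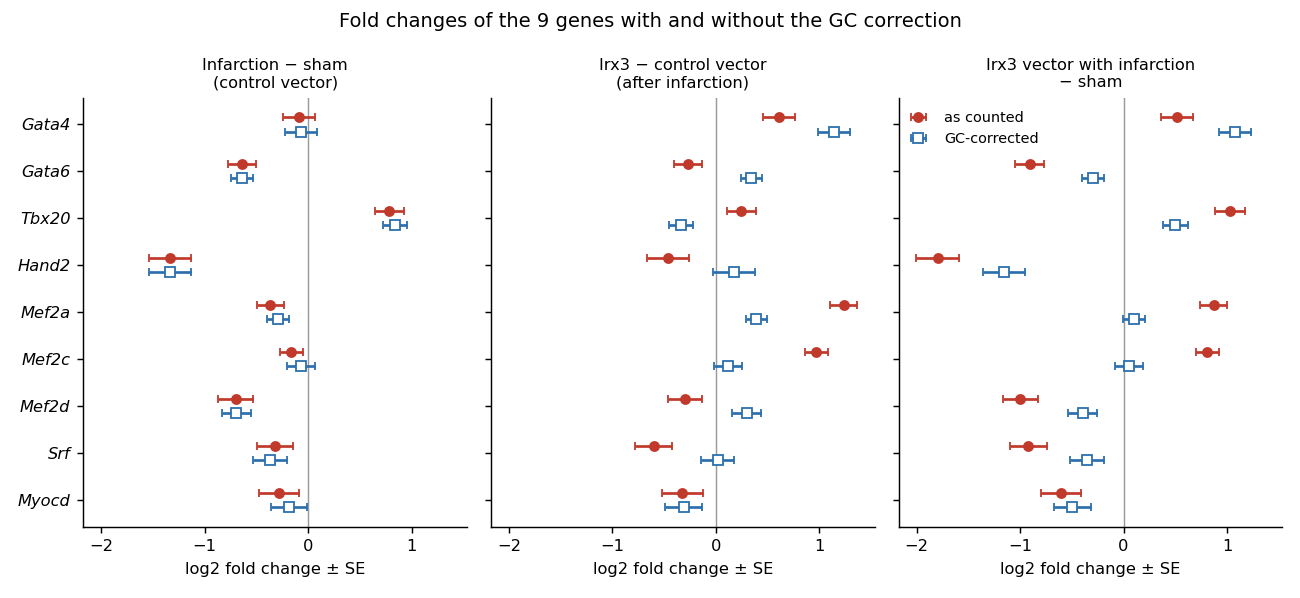
Log2 fold change with its SE (horizontal axes) of the 9 genes in the 3 comparisons, as counted (filled circles) and after the GC correction (open squares). The symbols of each gene nearly coincide for infarction minus sham surgery, while with the Irx3 vector Mef2a, Mef2c and Tbx20 move left and Gata4, Gata6, Mef2d, Hand2 and Srf move right.

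Set directly against sham hearts, infarcted Irx3-vector hearts differed in all 9 genes, where 62.9% of all genes tested were called, 35.2% higher and 27.7% lower. This comparison combines vector and infarction and shares its libraries with both comparisons above. Beside it, 11 of 12 fibroblast and 11 of 12 macrophage and monocyte markers were higher as counted. Of 12 endothelial markers 9 were lower and 2 higher, and of 12 cardiomyocyte markers 7 were lower and 1 higher. After the GC correction 11 fibroblast and 10 macrophage and monocyte markers were higher. Of the endothelial markers 8 were then lower and 1 higher, and of the cardiomyocyte markers 6 were lower and 0 higher. The part of these markers was not tested. Gata4, Mef2a, Mef2c and Tbx20 were higher, with log2 fold changes of 0.52 ± 0.16, 0.87 ± 0.13, 0.81 ± 0.11 and 1.03 ± 0.14 (SE). Gata6, Mef2d, Hand2, Srf and Myocd were lower, with log2 fold changes of -0.91 ± 0.14, -0.997 ± 0.17, -1.80 ± 0.21, -0.92 ± 0.18 and -0.60 ± 0.19 (SE). In each of these genes the 2 groups did not overlap, and edgeR's adjusted p ran from 1.4e-05 for Hand2 to 0.0155 for Myocd. Here the median over all genes was 0.12 on the log2 scale, and the Spearman correlation with GC content was -0.45. After the GC correction 6 of the 9 were called, where 54.0% of all genes were (32.6% higher and 21.5% lower): Gata4 (1.08) and Tbx20 (0.50) higher, and Gata6 (-0.29), Mef2d (-0.39), Hand2 (-1.16) and Myocd (-0.49) lower. Of these, Gata4, Tbx20 and Hand2 were called with any 1 of the 12 libraries left out. The corrected call of Gata6 ended without sham replicate 2 or 3 or Irx3-vector replicate 1 or 2, that of Mef2d without sham replicate 2, 3 or 4 or Irx3-vector replicate 1 or 3, and that of Myocd without sham replicate 2 or 3 or Irx3-vector replicate 1 or 3. Over all 12 libraries left out in turn, their log2 fold changes ran from -0.36 to -0.23 for Gata6, from -0.48 to -0.33 for Mef2d and from -0.58 to -0.37 for Myocd, with edgeR adjusted p of at most 0.0899, 0.0959 and 0.0944. Mef2a at 0.10, Mef2c at 0.05 and Srf at -0.35 no longer passed, with edgeR adjusted p of 0.433, 0.773 and 0.0869.

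Ratios of related transcripts within a library do not depend on library size, and ratios of genes of like GC content depend little on base composition. Gata6 and Gata4 differ in GC content by about 1 point. The log2 ratio of Gata6 to Gata4 counts was -1.89, -2.03, -1.44 and -2.27 in infarcted Irx3-vector hearts, -0.9985, -1.23, -1.27 and -0.71 in infarcted control-vector hearts, and -0.71, -0.39, -0.35 and -0.62 in sham hearts. The balance between the 2 GATA genes therefore lay farther toward Gata4 with the Irx3 vector, without overlap with either other group. With the Irx3 vector the ratio was lower than with the control vector by a difference of -0.85 (two-sided exact permutation p = 0.0286, the smallest that 4 libraries against 4 can give; Benjamini-Hochberg adjusted over 15 tests, 0.0714) and by -0.79 after the GC correction. Infarcted control-vector hearts differed from sham hearts by -0.53 (exact permutation p = 0.0571; adjusted 0.122). None of the 15 ratio tests passed after adjustment, and 0.0714 was the lowest value reached.

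**Figure D4:**
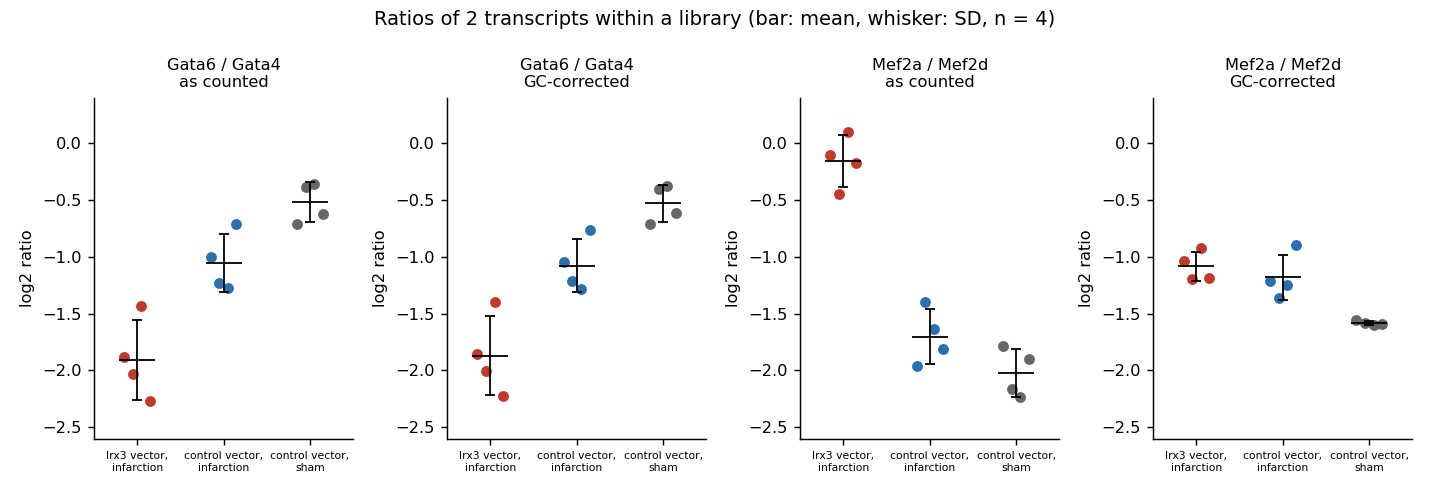
Log2 ratio of counts (vertical axes) of Gata6 to Gata4 and of Mef2a to Mef2d in each library, as counted and after the GC correction, by group (bar: mean; whisker: SD, n = 4). The ratio of Gata6 to Gata4 is lowest with the Irx3 vector on both scales, whereas the ratio of Mef2a to Mef2d is highest with the Irx3 vector as counted and level with the control vector after the correction.

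Mef2a and Mef2d differ widely in GC content, and their ratio changed with the correction. As counted, its mean was -0.16 ± 0.23 in infarcted Irx3-vector hearts, -1.70 ± 0.24 in infarcted control-vector hearts and -2.02 ± 0.21 in sham hearts (log2, SD, n = 4 each). The difference between the vectors was 1.55 as counted and 0.10 after the correction. Mef2a and Mef2c have the same GC content to the decimal, and their log2 ratio differed between the vectors by 0.26 on both scales (exact permutation p = 0.171). Mef2c over Mef2d differed by 1.28 as counted and by -0.16 corrected, and Myocd over Srf by 0.30 as counted and by -0.32 corrected.

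For each of the 9 genes, the tested genes with the most similar pattern of log2 CPM over the 12 libraries were looked up. The 12 points fall into 3 groups and share their depth and base composition, so the correlations only describe likeness. Gata4 was most like Klhdc8a (Pearson r = 0.95), Eid2 (0.94) and Cited4 (0.93), and Eid2 was again among its closest after the GC correction (0.98). Hand2 was most like Eef1a2 (0.99), the elongation factor gene of muscle and neurons, Spg7 (0.99), which encodes a mitochondrial protease, and Mrpl38 (0.99). After the correction Spg7 remained among the closest to Hand2 (0.98), beside Ndufv1 and Macrod1, both at 0.98. Myocd was most like Bag3 (0.95), Parvb (0.95) and Rbm24 (0.93), genes of sarcomere upkeep, cell attachment and cardiac splicing, but none of these was among its closest 3 after the correction, which were Prickle3 (0.92), Csrp3 (0.91) and Fsd1l (0.91). Mef2a was most like Cep70, Scamp1 and Nek7 (each 0.99), Mef2c was most like Tet1, Naa50 and Zfp952 (each 0.97), and these genes have GC contents between 38.2% and 46.1%, in the low range of Mef2a and Mef2c themselves. Of these 6 genes, Scamp1 was among the closest 3 to Mef2a after the correction (0.92), and none of the other 5 remained. Tbx20 was most like Gk5 (0.98), Rbm7 (0.98) and Casp12 (0.97) as counted and, with no gene shared, most like Nox4 (0.97), an oxidase gene, Crispld2 (0.97) and the collagen gene Col7a1 (0.96) after the correction.

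Other cardiac transcription factor genes were examined from a list of 20, of which 15 were tested. Among those with too few reads, Hand1, Isl1, Gata5 and Mef2b had 5, 7, 53 and 108 counts over all 12 libraries. After infarction with the control vector 7 of the 15 were lower and 1 was higher, with a median log2 fold change of -0.58. Over all genes tested 22.4% were lower and 26.3% higher, with a median of 0.01. In the same comparison 9 of 12 cardiomyocyte markers were lower and 0 higher, and their part in the count of the 15 was not tested. Of 999 genes tested to which the table assigns a transcription factor family, 23.4% were higher and 17.7% lower, with a median of 0.05. Tbx5, the T-box partner of GATA4, averaged 19.95 ± 3.25 CPM in infarcted hearts and 77.1 ± 10.6 CPM in sham hearts (SD, n = 4 each), and its log2 fold change was -1.95 (edgeR adjusted p = 9.7e-06). Prox1 and Esrrg, a homeobox gene and a regulator of energy metabolism, fell by 1.25 and 1.29 on the log2 scale, and Tbx18, known from the epicardium, rose by 1.71. Nkx2-5, the homeobox partner of GATA4, had a log2 fold change of -0.45 that did not pass (edgeR adjusted p = 0.0775), and it passed after the GC correction at -0.56 (edgeR adjusted p = 0.0125). With the Irx3 vector against the control vector 6 of the 15 were higher and 3 lower as counted, and 5 higher and 1 lower after the correction. Of the 999 genes 340 were higher and 220 lower as counted, beside 25.2% higher and 24.1% lower of all genes. After the correction 155 of 996 such genes were higher and 117 lower, beside 13.2% higher and 12.4% lower of all genes. Prox1 averaged 98.1 ± 16.9 CPM with the Irx3 vector and 25.9 ± 8.28 CPM with the control vector, a log2 fold change of 1.92 as counted (edgeR adjusted p = 3.6e-05) and 1.83 corrected. Irx4, the ventricular Iroquois gene, averaged 46.1 ± 15.8 CPM with the Irx3 vector and 17.4 ± 4.73 CPM with the control vector. Its log2 fold change was 1.40 (edgeR adjusted p = 0.000527) and 2.03 corrected. Meis1, which encodes a partner of homeobox proteins, rose by 0.82 as counted and did not pass after the correction, at 0.20. Nkx2-5 did not pass as counted, at 0.11 (edgeR adjusted p = 0.670), and was higher after the correction, at 0.52 (adjusted p = 0.0353). Tbx5 passed on neither scale, at 0.003 as counted and 0.16 corrected.

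**Figure D5:**
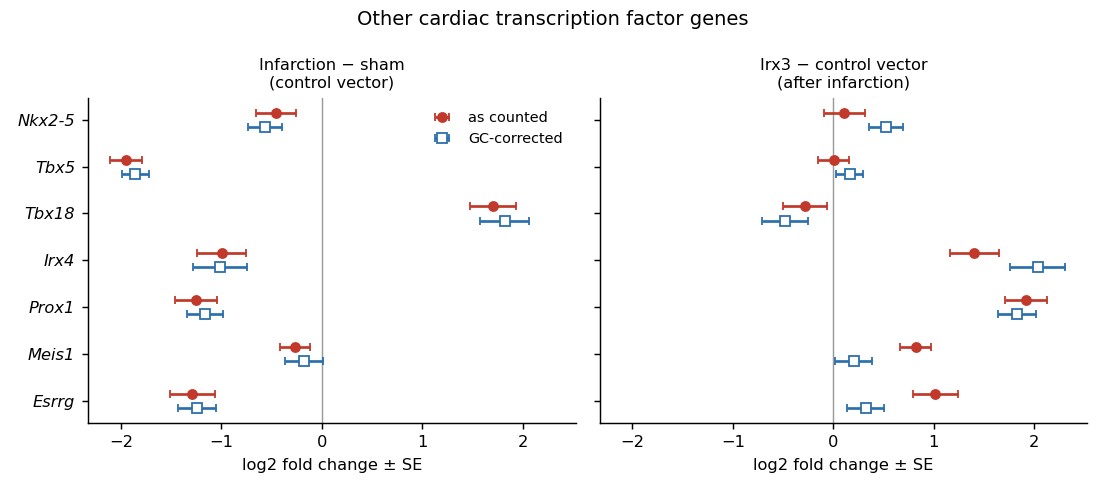
Log2 fold change with its SE (horizontal axes) of 7 of the 15 other cardiac transcription factor genes tested, those named in the text, for infarction minus sham surgery with the control vector (left) and the Irx3 vector minus the control vector after infarction (right), as counted (filled circles) and GC-corrected (open squares). Tbx5 lies lowest and Tbx18 highest on the left, and Prox1 and Irx4 lie highest on the right on both scales.

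Cofactors of GATA, MEF2 and SRF proteins were taken as a list of 22 genes, all tested. After infarction 8 were lower and 3 higher, where 22.4% of all genes were lower and 26.3% higher, with a median log2 fold change of -0.32. Zfpm2, which encodes the FOG2 partner of GATA4, fell by 0.73 (edgeR adjusted p = 0.000198). The class IIa deacetylase genes Hdac4 and Hdac9 fell by 1.22 and 0.92, and Ankrd1, a stress-responsive gene of the sarcomere and nucleus, rose by 2.82. Hdac5, of the same deacetylase class, did not pass as counted, at -0.44 (edgeR adjusted p = 0.0511). It passed after the GC correction, at -0.49 (edgeR adjusted p = 0.00324). With the Irx3 vector 4 were higher and 8 lower as counted (25.2% and 24.1% of all genes), and 5 higher and 4 lower after the correction (13.2% and 12.4% of all genes). The total called of the 22 was thus near the background in the first comparison (48.7%) and in the second as counted (49.3%). Hdac9 and Hdac4 then differed in direction. Hdac9 averaged 30.2 ± 5.49 CPM with the Irx3 vector and 9.12 ± 1.38 CPM with the control vector. Hdac4 averaged 28.1 ± 2.30 CPM with the Irx3 vector and 59.0 ± 9.19 CPM with the control vector. The log2 fold changes were 1.73 for Hdac9 and -1.07 for Hdac4 as counted, and 1.49 and -0.77 corrected, each of them called. Hdac5 was lower as counted, at -0.76 (edgeR adjusted p = 0.00296), and did not pass corrected, at -0.07 (edgeR adjusted p = 0.664). Cabin1 and Camta2 fell by 0.71 and 0.58 as counted and did not pass after the correction, at -0.27 and 0.07.

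Known targets were counted as well, as descriptions of these libraries. Of 21 cardiac muscle targets of GATA and MEF2 proteins, 14 were lower and 5 higher after infarction, against 22.4% and 26.3% of all genes, with a median log2 fold change of -0.92. In the same comparison 9 of 12 cardiomyocyte markers were lower and 0 higher, and their part in this count was not tested. Myh6, Actc1, Tnnt2, Tnni3, Myl2, Myl3, Ryr2 and Ckm are in both lists, so these counts are not independent. The natriuretic peptide genes Nppa and Nppb, textbook targets of GATA4, rose by 6.14 and 4.45 on the log2 scale, while Corin, a natriuretic peptide convertase, and Ryr2, the calcium release channel, fell by 1.24 and 1.49. With the Irx3 vector 2 of the 21 were higher and 6 lower as counted, and 1 higher and 3 lower corrected, where 49.3% of all genes were called as counted and 25.5% corrected. Chrm2, a muscarinic receptor gene, rose by 1.44, or 0.54 corrected, and Kcna5, a potassium channel gene, fell by 1.21, or 0.80 corrected, all of these called. Slc8a1 rose by 0.64 and Tnnt2 fell by 0.85 as counted, and neither passed corrected, at -0.05 and -0.48. Nppa averaged 594 ± 345 CPM with the Irx3 vector and 2632 ± 883 CPM with the control vector, a log2 fold change of -2.15 (edgeR adjusted p = 0.0153) that did not pass after the correction, at -1.63 (adjusted p = 0.0776). Nppb did not pass as counted, at -0.52 (edgeR adjusted p = 0.0906), and passed after the correction, at -0.70 (adjusted p = 0.0424).

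Of 12 smooth muscle targets of serum response factor and myocardin, 2 were higher and 2 lower after infarction and 8 did not pass, a smaller share called than the 48.7% of all genes. Myl9 and Itga8 rose by 1.13 and 0.88, and Smtn and Synpo2 fell by 0.99 and 0.92. With the Irx3 vector 2 were higher and 3 lower as counted, where 49.3% of all genes were called. Cnn1, which encodes calponin, averaged 70.2 ± 25.7 CPM with the Irx3 vector and 11.4 ± 7.77 CPM with the control vector, a log2 fold change of 2.62 (edgeR adjusted p = 0.00349), whereas Myl9 fell by 1.89, Acta2 fell by 1.24 and Lmod1 fell by 1.34. The correction left Cnn1 at 3.01, Myl9 at -1.24 and Acta2 at -1.20, each called, and Lmod1 at -0.94 without a call. Synpo2 was higher as counted, at 0.58 (edgeR adjusted p = 0.030), and did not pass corrected, at 0.24. Smtn did not pass as counted, at -0.10, and was higher corrected, at 0.55 (edgeR adjusted p = 0.00893). Corrected, 2 of the 12 were higher and 2 lower, where 25.5% of all genes were called. Of 14 other targets of serum response factor, early response and cytoskeletal genes, 10 were higher and 0 lower after infarction, where 26.3% of all genes were higher. Egr2 averaged 10.3 ± 3.39 CPM in infarcted hearts and 0.584 ± 0.222 CPM in sham hearts, a log2 fold change of 4.12 (edgeR adjusted p = 1.9e-05), and Egr3, Ccn1 and Ccn2 rose by 2.43, 1.48 and 3.16. With the Irx3 vector 5 of the 14 were lower and 1 higher as counted, and 4 lower and 3 higher corrected, beside 24.1% lower and 25.2% higher of all genes as counted and 12.4% and 13.2% corrected. Ccn2 averaged 359 ± 85.0 CPM with the Irx3 vector and 1772 ± 878 CPM with the control vector, a log2 fold change of -2.30 as counted (edgeR adjusted p = 0.000125) and -2.08 corrected. Ccn1, Vcl and Zyx fell by 1.28, 0.58 and 1.16 as counted and by 0.96, 0.82 and 0.45 after the correction, each called on both scales. Egr3 rose by 1.39 as counted (edgeR adjusted p = 0.00148) and by 1.76 corrected (edgeR adjusted p = 0.00112). Egr1 and Egr2 did not pass as counted, at 0.67 and 0.72. Both were higher corrected, at 1.21 and 1.09 (edgeR adjusted p = 0.0182 and 0.0197). Ccn2 is also made by fibroblasts, of whose 12 markers 5 were lower and 0 higher with the Irx3 vector as counted, and 6 and 0 corrected. The part of fibroblasts was not tested.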

How the data were processed

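Polyadenylated RNA of 12 left ventricles was sequenced, 1 library per mouse. The authors deposited 1 table of raw read counts per gene, in whole numbers, per the file headers; reads were trimmed with fastp and the builds GRCm39 and mm39 are named, per the submitters' processing notes. The sources used here do not name the aligner, the counter or the strand setting. The 9 genes and all lists were chosen with earlier results of these data known. Counts were normalised with TMM factors after filterByExpr and fitted for all 12 libraries together (1 term per group, 9 residual degrees of freedom) with edgeR 4.0.16 in R 4.3.3, by the robust quasi-likelihood test. P-values were adjusted by Benjamini-Hochberg over all 15742 genes, and a gene is called at an adjusted p under 0.05. CPM are TMM-normalised, and an SE is the log2 fold change divided by the square root of F. For the GC correction, a natural spline with 6 degrees of freedom of the deviation of log2 CPM against transcript GC content was fitted per library, in 3 rounds, and used as an offset for the 15186 genes (96.5% of those tested) whose symbols matched GENCODE M21 on GRCm38; that annotation also gave exon lengths. Log2 ratios of 2 genes used a pseudocount of 0.5 and exact permutation over the 70 assignments of libraries. Named were all 9 genes, Irx3, and genes with the smallest p (up to 4) in each list, for infarction against sham surgery and for the Irx3 vector against the control vector. Genes most like a member were named for Gata4, Hand2, Myocd, Mef2a, Mef2c and Tbx20, not for Gata6, Mef2d or Srf. Nkx2-5, Tbx5, Zfpm2, Nppa, Nppb, Irx4 in its list and the genes with too few reads were named besides where the text turns to them. The same holds for Hdac5 and Egr1, and for Egr2, Egr3, Smtn and Synpo2 in the comparison of the vectors. The steps were checked on simulated counts. Alternatives were RLE and upper-quartile factors, other filters, removal of mitochondrial genes, glmTreat, DESeq2 1.42.0, only the 2 groups compared, a replicate block and each library left out. All 66 pairs of libraries differed by more than sampling noise, with a chi-square per gene of 7.87 or more. Results of 2 listed genes are not reported here.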

Additional observations from a re-analysis of the deposited data

Results flagged for a closer look

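A sample far from the others of its group was looked for in 42 sets of 4 libraries (the levels of the 9 genes and their log2 ratios, each in the 3 groups of mice). Chance alone marks about 1 in 20 such sets. There was 1. The log2 ratio of Mef2c to Mef2d counts in infarcted control-vector replicate 3 was -2.39, above the other 3 libraries of that group, which lay between -2.82 and -2.81. The 2 genes differ in GC content widely. On the GC-corrected scale replicate 3, at -2.01, lay among the others at -2.07, -2.77 and -1.90, and replicate 2 was the one farthest from the rest.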

How the results depend on the processing

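RLE and upper-quartile factors, a filter of 1 CPM in 4 libraries, removal of mitochondrial genes, DESeq2 and a fit of only the 2 groups compared kept the direction and the call of all 9 genes in all 3 comparisons. Without a filter on low counts, and with a replicate block, 1 of these 27 results changed: Mef2a after infarction was no longer called, with log2 fold changes of -0.35 and -0.37. The replicate numbers are not stated to pair mice. Residuals of same-numbered libraries correlated between -0.60 and 0.18, over 0.1 in 2 of 12 pairs. Those of libraries with unlike numbers ran from -0.53 to 0.65. With a spread this wide, these correlations cannot decide whether same-numbered mice were handled together. With the block, 6624, 6679 and 9077 genes were called in the 3 comparisons (infarction against sham; Irx3 against control vector; Irx3 vector with infarction against sham), against 7662, 7760 and 9904 without it.

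Against a fold change of 1.5 (glmTreat), 3689, 2787 and 5535 genes and 1, 2 and 7 of the 9 were called. The GC correction left 3879 genes called between the vectors (2718 with the replicate block as well, 3641 without replicate 4 of both infarcted groups). With these additions 2 of the 9 were called in each case, but not the same genes. With the block these were Gata4 and Tbx20 (lower, adjusted p = 0.0463), as Mef2a (0.0508) and Gata6 (0.0636) no longer passed, and without replicate 4 of both groups they were Gata4 and Mef2a. With block and correction 4 of the 9 were called in infarcted Irx3-vector hearts against sham hearts, without Gata6 (0.0523) and Mef2d (0.0643). In that setting 7315 of 15186 genes were called, so 4 of 9 is near the background. Mef2a after infarction was not called with block and correction (0.0712). Between the vectors the correction turned the sign of Gata6 (0.34), Mef2d (0.30), Tbx20 (-0.34), Hand2 (0.18) and Srf (0.018). With the replicate block as well, the values were 0.34, 0.29, -0.34, 0.17 and 0.015, and without replicate 4 of both groups Gata6 was 0.32, Mef2d 0.14 and Tbx20 -0.27, while Gata4 after infarction was 0.054. Corrected log2 ratios turned for Mef2c over Mef2d (-0.16) and Myocd over Srf (-0.32 between the vectors, -0.13 against sham). The cause was not tested.

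With each library left out in turn, with and without the correction, ranges between the vectors were -0.32 to 0.40 for Gata6, -0.39 to 0.36 for Mef2d, -0.43 to 0.32 for Tbx20, -0.64 to 0.32 for Hand2, -0.72 to 0.11 for Srf and -0.0016 to 1.02 for Mef2c. Mef2c ranged from -0.044 to 0.87 against sham with the Irx3 vector. After infarction Gata4 ranged from -0.19 to 0.046 and Mef2c from -0.26 to 0.052. Genes called between the vectors ranged from 2761 to 8353 and members of the 9 from 1 to 5. Between infarcted Irx3-vector hearts and sham hearts, genes called ranged from 7084 to 10586 and members from 3 to 9. The log2 ratio of Mef2a to Mef2c against sham ranged from -0.027 to 0.13, and that of Myocd to Srf after infarction from -0.15 to 0.12.

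Between 4 libraries and 4, exact permutation cannot go below 0.0286, so no ratio could pass after adjustment unless many did; paired sign flips cannot go below 0.125. Hand2, at 278 to 1321 counts per library, had the fewest reads of the 9.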
